A study of Mus musculus with 12 samples.

Results

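The response of mouse embryonic fibroblasts (MEFs) to interferon-gamma (IFNg) was taken from 4 of 12 single-colour Affymetrix expression arrays. They were 2 arrays of cells given IFNg for 6 h and 2 arrays of cells given DMSO. The titles of the IFNg arrays do not say whether those cells also got DMSO. The arrays were chosen by their titles alone, and all genes with a probe set of their own that passed a filter on dim signals were compared, 12192 of 18193 genes. The other arrays, 2 for each group, held cells given IFNa for 6 h, AMN107, AMN107 then IFNa for 6 h, or AMN107 then IFNg for 6 h. AMN107 is the code name of nilotinib, a kinase inhibitor that targets ABL. The labels give no dose of any agent, no duration for AMN107, no mouse strain or genotype, and no number of embryos, and they name the cells only as MEFs. The labels name the arrays within a group as biological replicates but do not say whether separate cultures were used, so p-values measure the spread between these arrays. All groups were grown in Dulbecco's modified Eagle's medium with fetal bovine serum.

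IFNg is the type II interferon, a cytokine made mainly by activated T cells and natural killer cells. It binds a receptor of the chains IFNGR1 and IFNGR2, which carry the kinases JAK1 and JAK2, and the signal reaches the nucleus as a STAT dimer that binds GAS elements in promoters. IRF1, itself a target, then acts with other factors on ISRE elements, which are also the sites used by the type I interferons such as IFNa. In fibroblasts IFNg is known for inducing GTPases that attack intracellular pathogens, peptide presentation on MHC class I, and chemokines that attract T cells.

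The values are probe set signals, a brightness with no unit, and 1 probe set stood for a gene. Differences are on the scale log2(signal + 8.66), so a fold is a ratio of signal + 8.66 and understates the change of dim genes. A gene was called when limma's p, adjusted over all 12192 genes by the Benjamini-Hochberg method, was under 0.05. Signals of different genes come from different probes and are not compared. The DMSO arrays correlated at 0.997 across genes, as did the IFNg arrays. The IFNa arrays correlated at 0.976, and on IFNa replicate 2 the GAPDH probe sets gave 0.0252 as the 5' over 3' signal, against 1.07 to 1.10 on the DMSO and IFNg arrays. Some quality measures moved with the groups compared. The 5'/3' ratio of the transferrin receptor probe sets was 0.275 and 0.267 on the DMSO arrays and 0.792 and 0.735 on the IFNg arrays, and that of actin was 0.676 and 0.712 against 0.791 and 0.795. The LysX spike gave 59.6 and 66.2 with DMSO and 40.6 and 36.1 with IFNg. The part of these differences in the results was not tested.

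The fibroblast label was checked against marker genes. Of 12 fibroblast markers, 9 lay above the array median on all 4 arrays, among them Col1a1, Col1a2, Pdgfra, Dcn and Vim, while Lum, Postn and Thy1 lay below it on all 4. Of 11 macrophage and leukocyte markers, Ptprc, Adgre1, Itgam, Itgax and Ncr1 were below the median on all 4 arrays, while 5 were above it on both DMSO and both IFNg arrays. The tested members were Cd68, Csf1r, Cd14, Fcgr1 and Cd3e, with log2 differences from -0.21 to 0.19. The summed signal of this leukocyte list was 377 and 385 with DMSO and 374 and 386 with IFNg. Limma called 0 of its 5 tested members, and 0 had an unadjusted p under 0.05. Of 6 endothelial markers, 1 was above the median on both DMSO and both IFNg arrays, as were 2 of 6 epithelial and 3 of 6 muscle markers. Limma likewise called 0 of 3 tested epithelial and 0 of 4 tested muscle markers, with 0 at an unadjusted p under 0.05.

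IFNg changed few genes strongly, and the strong changes were rises. Of 12192 genes, 746 rose (6.12%) and 357 fell (2.93%). A rise of 2-fold or more was called for 156 genes (1.28%). A fall of that size was called by limma for 0, and the lowest difference of any gene, whatever its p, was -0.84 on the log2 scale. Without IFNg replicate 2 the count of such falls was 1. In each of the 156 both IFNg arrays lay above both DMSO arrays, which a called 2-fold rise makes likely. That held for 3347 of all 12192 genes tested, and 4365 had both IFNg arrays below both DMSO arrays. The median rise of the 156 was 1.41 on the log2 scale. The rise was at least 2 on that scale in 42 genes, at least 3 in 19, at least 5 in 6 and at least 6 in 3. The other 590 rises and all 357 falls were under 2-fold, and 61 of the falls reached -0.5. Over all genes tested the median difference was -0.03. Of the 156 genes, 20 had been at or under the array median on both DMSO arrays, so they passed the filter through other arrays, where they were brighter. Lists below also hold members this dim with DMSO but above the median on an IFNg array. They were 2 each of the immunity-related GTPases, guanylate-binding proteins, contact ligands, antiviral, cell death and complement genes. They were 1 each of the transcription factors, chemokines, cytokines, sensors, neuronal markers, and metabolic, matrix protease, contractile and cell cycle genes. List counts and medians include them, though they passed the filter through brighter arrays.

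The split between rises and falls moved with the scaling of the arrays. With the arrays quantile-normalized, set to 1 median or set to 1 trimmed mean, 43.3%, 44.1% and 45.8% of the called genes were higher, against 67.6% as deposited. The median over all genes then shifted to -0.08, -0.11 and -0.09. Of the 156 genes, 137, 137 and 139 were still at 2-fold under these scalings and all 156 were still called. Fewer were kept with the mean of a gene's probe sets, where 115 of the 156 were at 2-fold and 147 were called. Without the probe sets that may cross-read these were 146 and 149, and with the larger pseudocount 135 and 155. Leaving out 1 array moved the count of called genes of any size from 275 (without DMSO replicate 1), 324 (without IFNg replicate 1), 433 (without IFNg replicate 2) or 453 (without DMSO replicate 2) to 3727 and 3733 (without IFNa replicates 1 and 2), while the count at 2-fold ran from 127 to 157.

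**Figure D1:**
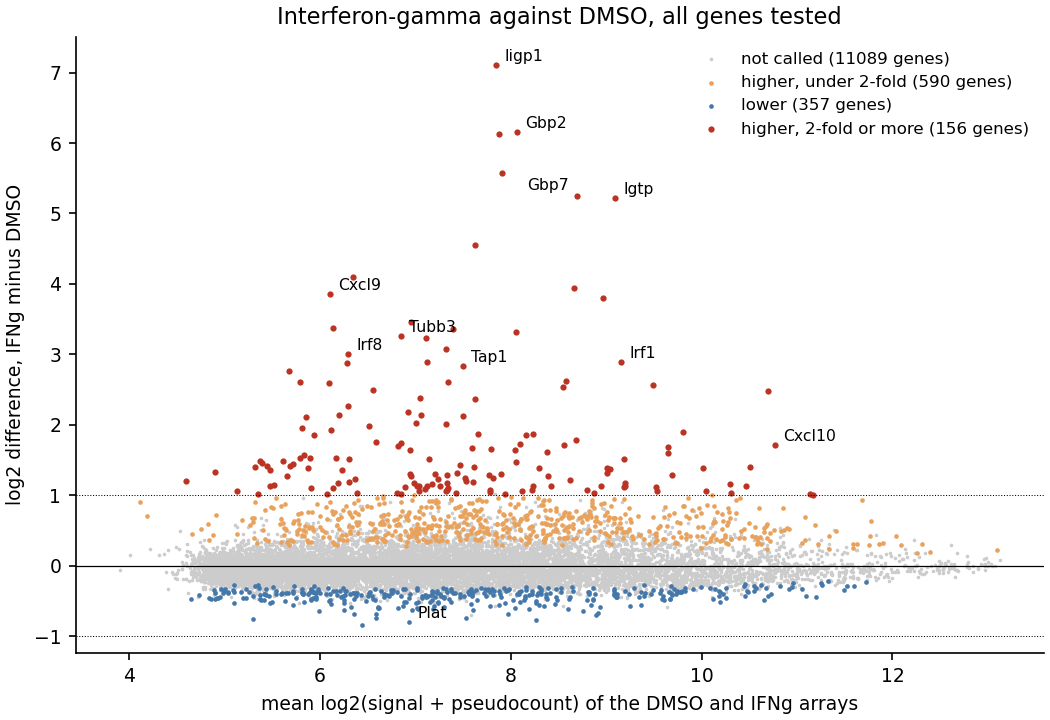
Each point is 1 of the 12192 genes tested, with its mean log2(signal + 8.66) over the 2 DMSO and 2 IFNg arrays on the x axis and the log2 difference IFNg minus DMSO on the y axis. Colours mark the 156 genes called higher at 2-fold or more, the 590 higher under 2-fold, the 357 lower and the genes not called, and dotted lines mark 2-fold. The rises reach 7.11 (Iigp1), while all called falls lie between 0 and -1.

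The largest rises were in the immunity-related GTPases (IRGs), proteins that coat the vacuoles of intracellular parasites and bacteria and break them. Of 15 genes on the IRG list, 8 had a probe set of their own and 8 were tested. Of these, 6 rose, all at 2-fold or more, and the median difference over the 8 was 4.24, against -0.03 over all genes. Over all genes tested 6.12% were called higher and 2.93% lower, shares to set beside the counts of every list below. Iigp1 (Irga6) is an effector IRG that loads onto the vacuole of Toxoplasma. Its signal was 12 and 9.78 on the DMSO arrays and 2712 and 2670.1 on the IFNg arrays. It was near the floor of the array without IFNg and high on both arrays with it, a 138-fold rise (log2 7.11, SE 0.11, limma adjusted p = 9.6e-11). The size depends on the constant added to the signal: it was 6.38 on the log2 scale with a constant at the array median and 7.96 with none. A second probe set for Iigp1 rose by 6.65.

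Ifi47 (Irgd), another effector, had signals of 30.3 and 22.5 on the DMSO arrays and 1565 and 1731 on the IFNg arrays, with no overlap (log2 5.57, SE 0.20, limma adjusted p = 2.7e-08). Igtp (Irgm3) belongs to the regulatory IRGM branch that protects the cell's own membranes. It read 83.3 and 78 on the DMSO arrays and 3399 and 3238 on the IFNg arrays, a 37.3-fold rise from a level that was already well above the median (log2 5.22, SE 0.10, limma adjusted p = 3.31e-10). The other regulators also separated completely: Irgm2 went from 31.5 and 32.6 to 1001 and 887 (log2 4.55, SE 0.12, limma adjusted p = 2.69e-09). Irgm1, needed for resistance to mycobacteria, went from 103 and 86.5 to 1486 and 1678 (log2 3.94, SE 0.19, limma adjusted p = 3.89e-07). Gm4951, an IRG that lies next to Iigp1, rose from 10.1 and 11.9 to 123 and 124 (log2 2.76, SE 0.09, limma adjusted p = 1.44e-08). The 2 members that did not pass were Irgc1 (log2 -0.13), an IRG known from testis, and Irgq (log2 -0.22).

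The guanylate-binding proteins (GBPs), larger GTPases that are recruited to the same vacuoles and to bacteria in the cytosol, formed the second block. Of 13 genes on this list 6 had a probe set of their own and 5 were tested. All 5 rose at 2-fold or more, with a median of 5.25, and Gbp2b and Gbp6 were at or under the array median on both DMSO arrays. Gbp2 read 22.5 and 23.6 on the DMSO arrays and 2224 and 2286 on the IFNg arrays, with both treated arrays far above both controls (log2 6.16, SE 0.14, limma adjusted p = 1.68e-09, 71.3-fold on the scale with the added constant). Gbp2b went from 22.3 and 17 to 2009 and 1903 (log2 6.12, SE 0.17, limma adjusted p = 4.31e-09), and Gbp7 from 60.3 and 56.6 to 2684 and 2415 (log2 5.25, SE 0.13, limma adjusted p = 2.68e-09). Gbp3 read 132 and 119 on the DMSO arrays and 1909 and 1826 on the IFNg arrays (log2 3.81, SE 0.12, limma adjusted p = 1.44e-08). Gbp6 rose from 13.8 and 12.6 to 225 and 212 (log2 3.38, SE 0.10, limma adjusted p = 1.17e-08). The second probe sets for Gbp2, Gbp7 and Gbp6 rose by 6.01, 5.14 and 3.70. No DMSO array overlapped an IFNg array for any of the 5, as in all 156 genes.

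Of the 16 largest rises, 10 were on the IRG or GBP list, and the rest were not on those lists. BC023105, a gene next to Iigp1 whose function is not described here, went from 10.4 and 11.5 to 285 and 379 (log2 4.10, SE 0.13, limma adjusted p = 1.32e-08). Cxcl9, a chemokine for T cells, went from 8.88 and 9.93 to 283 and 224 (log2 3.85, SE 0.13, limma adjusted p = 1.57e-08). Its other probe set, which was not tested, differed by 0.60. Zbp1, a sensor of nucleic acids in the Z form, had signals of 26.3 and 31.2 on the DMSO arrays and 416 and 386 on the IFNg arrays (log2 3.46, SE 0.19, limma adjusted p = 1.34e-06), and its other probe set rose by 1.34. Parp14, an ADP-ribosyltransferase, read 43.9 and 43.5 on the DMSO arrays and 597 and 472 on the IFNg arrays (log2 3.37, SE 0.14, limma adjusted p = 1.1e-07), with another probe set at 0.73. Mndal, an HIN-200 protein of the interferon-inducible family on chromosome 1, rose by 3.31 (SE 0.15, limma adjusted p = 2.31e-07). The last of the 16 was Tubb3, a beta-tubulin known as a neuronal marker, described with the tubulins.

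**Figure D2:**
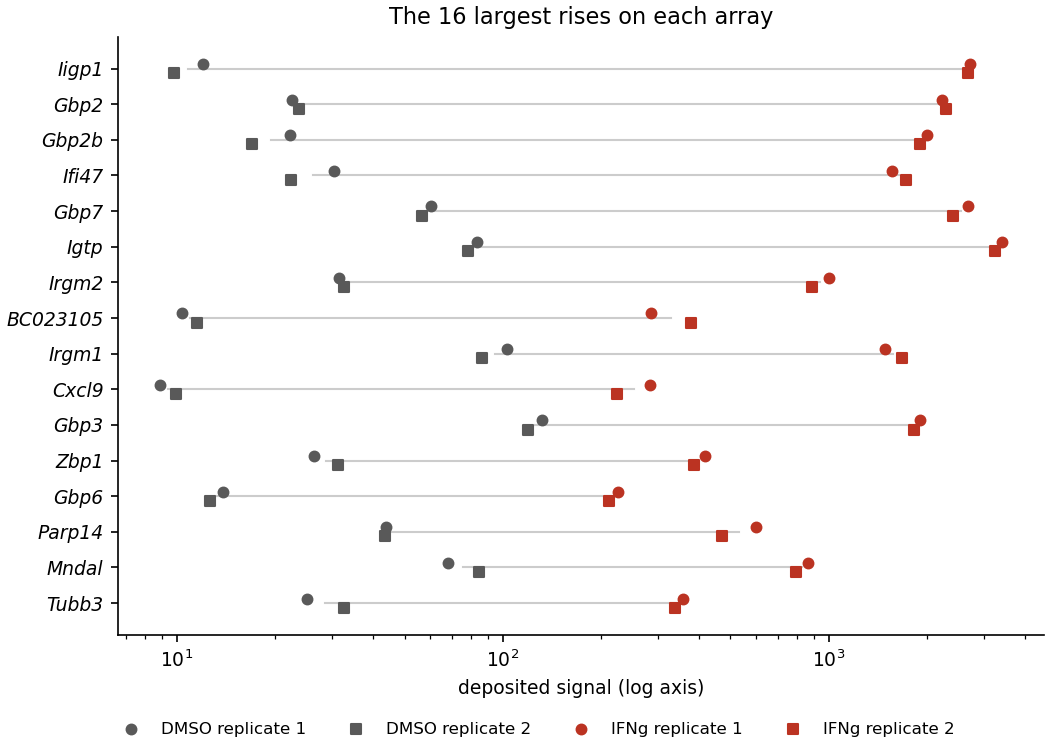
The 16 genes with the largest rises are listed from top to bottom by size, with the deposited signal on a log x axis, grey points for DMSO and red for IFNg, circles for replicate 1, squares for replicate 2, and a line between the group means. In each of the 16 both IFNg arrays lie to the right of both DMSO arrays, which was a condition for being listed.

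The promoters of the rising genes were searched for the letters of the GAS element, TTCNNNGAA, and of an ISRE core, GAAA and GAAA with any 2 letters between them, on both strands. RefSeq promoters (build GRCm38.p6) were available for 123 of the 156 genes at 2-fold, with 157 promoters since some genes have several starts, and the 250 bases before the start were read. A GAS match was present in 11.5% of these promoters (18), against 5.79% of the 12573 promoters of all genes tested and 7.02% of all 32851 promoters. An ISRE match was present in 17.8% (28), against 2.43% and 2.98%. Either motif was present in 26.1% (41) and both in 3.18% (5), against 7.96% and 0.255% of the promoters of genes tested. In 2 of the 157 promoters a GAS match overlapped an ISRE match, and in 6 any pair of matches overlapped, ISRE matches among themselves included. Among promoters of the 357 genes that fell, 5.85% held a GAS match and 1.06% an ISRE match. A match is a run of letters and not a measured binding site. Of the 123 genes, 83 had neither motif in this window, and their median rise was 1.31, against 1.71 for the 27 genes with an ISRE match and 1.65 for the 18 with a GAS match. The 5 genes with both were Gbp7 (5.25), Igtp (5.22), Irgm2 (4.55), Parp11 (1.52) and Bst2 (1.07). Their median, 4.55, is the value of Irgm2, and Gbp7, Igtp and Irgm2 come from the families with the largest rises. Whether having both motifs goes with a larger rise was not tested.

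Promoters of 6 genes are shown because they carry the pattern: Gbp2 with an ISRE match, Gbp7, Igtp and Irgm2 with both motifs close together, Irf1 with a GAS match, and Cxcl9 with neither although it rose by 3.85. Each line gives the 250 bases before the start, 5' to 3' on the gene's strand, in lower case with the matched letters in capitals. They are Gbp2 at chr3:142620413-142620662 on the + strand, Gbp7 at chr3:142530086-142530335 on the + strand, Igtp at chr11:58199306-58199555 on the + strand, Irgm2 at chr11:58214727-58214976 on the + strand, Irf1 at chr11:53769764-53770013 on the + strand and Cxcl9 at chr5:92328080-92328329 on the - strand.
Gbp2: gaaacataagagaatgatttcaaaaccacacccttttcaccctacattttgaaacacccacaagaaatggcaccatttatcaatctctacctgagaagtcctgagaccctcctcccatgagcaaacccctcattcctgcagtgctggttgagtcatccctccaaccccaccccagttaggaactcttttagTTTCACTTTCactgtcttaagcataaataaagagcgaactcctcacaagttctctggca
Gbp7: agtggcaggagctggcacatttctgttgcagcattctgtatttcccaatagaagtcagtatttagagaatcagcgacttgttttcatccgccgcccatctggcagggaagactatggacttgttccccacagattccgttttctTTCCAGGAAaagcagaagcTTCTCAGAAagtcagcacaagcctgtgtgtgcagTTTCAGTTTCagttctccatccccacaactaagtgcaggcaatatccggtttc
Igtp: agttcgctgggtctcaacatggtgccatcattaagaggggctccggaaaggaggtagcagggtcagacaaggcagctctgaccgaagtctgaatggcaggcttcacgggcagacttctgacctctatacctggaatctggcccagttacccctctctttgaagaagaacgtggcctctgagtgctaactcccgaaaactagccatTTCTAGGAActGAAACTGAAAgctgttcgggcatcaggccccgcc
Irgm2: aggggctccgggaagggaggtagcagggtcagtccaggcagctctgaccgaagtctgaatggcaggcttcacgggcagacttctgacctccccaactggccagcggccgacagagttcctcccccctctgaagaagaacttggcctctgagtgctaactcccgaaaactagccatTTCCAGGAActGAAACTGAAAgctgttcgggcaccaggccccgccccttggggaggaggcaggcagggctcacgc
Irf1: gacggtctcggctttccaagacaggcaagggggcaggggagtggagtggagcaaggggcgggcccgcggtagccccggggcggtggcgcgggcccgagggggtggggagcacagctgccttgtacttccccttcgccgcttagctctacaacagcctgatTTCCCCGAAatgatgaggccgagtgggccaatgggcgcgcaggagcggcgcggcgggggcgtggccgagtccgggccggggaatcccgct
Cxcl9: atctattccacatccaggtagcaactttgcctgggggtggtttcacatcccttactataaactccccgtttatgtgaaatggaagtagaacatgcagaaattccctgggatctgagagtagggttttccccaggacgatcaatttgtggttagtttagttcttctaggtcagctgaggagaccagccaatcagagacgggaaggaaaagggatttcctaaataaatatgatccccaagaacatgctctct

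In Gbp7 the GAS matches are TTCCAGGAA, starting 106 bases before the start, and TTCTCAGAA, at 87, and the ISRE match, TTTCAGTTTC read on the other strand, starts at 53. Igtp and Irgm2 share an arrangement: the GAS match (TTCTAGGAA at 45 and TTCCAGGAA at 75) lies just before an identical ISRE match, GAAACTGAAA, at 34 and 64. The longest run of letters that these promoters share is 55 bases, so the pair are not independent examples. In Gbp2 the ISRE match TTTCACTTTC lies at 59. The GAS match of Irf1, TTCCCCGAA, lies at 90, and a later start of Irf1 has no match. That Cxcl9 shows none says only that these letters are not in this window.

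Many of the rising genes are neighbours in the genome. All 156 were placed in the RefSeq gene order among 12170 genes tested. Of these 156, 41 (26.3%) had another 2-fold gene as the next tested gene on either side, against 300 (2.47%) of all genes tested. They formed 17 runs of 2 or more, and 6 runs of 3 or more. The runs of 3 or more were Gbp7, Gbp3, Gbp2b and Gbp2 on chromosome 3, Cxcl9, Cxcl10 and Cxcl11 on chromosome 5, Parp14, Dtx3l and Parp9 on chromosome 16, Psmb9, Tap1 and Tap2 on chromosome 17, Trim34a, Trim12c and Trim30a on chromosome 7, and the run of Gm4951, Iigp1 and BC023105. Neighbours in such families can share sequence, so probe sets of near-identical copies may cross-read.

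At the receptor end of the pathway the IFNg receptor chains were not called, while Stat2 and Stat3 rose at 2-fold or more. The list of receptor chains, kinases, STATs and phosphatases had 16 tested members, with a median of 0.11. Of these, 4 rose and 1 fell, against 6.12% and 2.93% of all genes tested. The ligand-binding chain Ifngr1 read 117 and 136 on the DMSO arrays and 158 and 155 on the IFNg arrays and was not called (log2 0.29, SE 0.10, limma adjusted p = 0.107), nor was Ifngr2 (log2 0.19, SE 0.19, limma adjusted p = 0.591). Jak1 was not called either (log2 0.56, SE 0.34, limma adjusted p = 0.347), and its probe sets disagreed, with differences of -0.07 and 1.23 in the other sets. Jak2 read 135 and 139 on the DMSO arrays and 189 and 199.7 on the IFNg arrays and was called (log2 0.48, SE 0.10, limma adjusted p = 0.0145), a call that failed without any 1 of the 4 DMSO and IFNg arrays (limma adjusted p 0.0698 to 0.121). Stat2, the partner of IRF9 in the type I complex, rose from 23.7 and 31.8 to 91.8 and 80.9 (log2 1.39, SE 0.15, limma adjusted p = 0.000221). Stat3 rose by 1.05 (SE 0.10, limma adjusted p = 0.000141), and Ifnar2, a chain of the type I interferon receptor, by 0.79 (SE 0.09, limma adjusted p = 0.000271). The member called lower was the phosphatase gene Ptpn11 (log2 -0.58, SE 0.12, limma adjusted p = 0.0163), but another probe set gave 1.06 and the mean of its sets 0.24, and the call was lost without either DMSO array or IFNg replicate 1 (limma adjusted p 0.129, 0.0836 and 0.103).

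Transcription factors that carry the response onward did rise. Of 13 tested members of this list 7 rose and 0 fell, 6 of them at 2-fold or more, with a median of 0.84. Irf1, the primary target that acts on ISRE elements, read 184 and 218 on the DMSO arrays and 1610.0 and 1478 on the IFNg arrays, a 7.42-fold rise with no overlap (log2 2.89, SE 0.12, limma adjusted p = 9.43e-08). Irf8, best known from myeloid cells, went from 19 and 19.2 to 212 and 216 (log2 3.01, SE 0.08, limma adjusted p = 4.03e-09), and its other probe set rose by 1.86. Nlrc5, the transactivator of MHC class I genes, went from 39.6 and 45.2 to 354 and 384 (log2 2.89, SE 0.12, limma adjusted p = 9.43e-08). Batf2 rose from 32.1 and 30 to 205 and 226 (log2 2.50, SE 0.12, limma adjusted p = 3.5e-07). Irf9, the DNA-binding part of the type I complex, rose by 1.32 (SE 0.17, limma adjusted p = 0.000925). Irf7, which amplifies type I interferon genes, differed by 1.31 and Cebpb by 0.84 (limma adjusted p = 0.00764 for both). Both calls were lost without DMSO replicate 1 (limma adjusted p 0.0873 and 0.0943) or without IFNg replicate 1 (0.0778 and 0.0872). Irf2, Irf3, Irf5, Batf, Batf3 and Spi1 were not called (log2 -0.21 to 0.46). Ciita, the class II transactivator, was not tested, since it did not pass the filter on dim signals.

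Of 11 tested feedback inhibitors 3 rose and 0 fell, against 6.12% and 2.93% of all genes tested, with a list median of 0.00. Socs1, the main inhibitor of JAK signalling from the IFNg receptor, rose from 33 and 43.9 to 129 and 122 (log2 1.52, SE 0.18, limma adjusted p = 0.000473). Socs3, which acts on gp130 receptors, rose by 1.43 (SE 0.13, limma adjusted p = 7.63e-05), and its other probe sets by 0.95 and 1.45. Usp18, which removes ISG15 and blocks the type I receptor, rose from 68.6 and 88.5 to 459 and 419.6 (log2 2.37, SE 0.23, limma adjusted p = 9.48e-05). The remaining Socs genes (Socs2, Socs4, Socs5, Socs6 and Socs7), Cish, Pias1 and Ptpn2 ran from -0.14 to 0.27 and were not called.

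Most tested genes of peptide presentation on MHC class I rose. Of 25 genes on this list 16 had a probe set of their own and 13 were tested. Of these 10 rose and 0 fell, 6 at 2-fold or more, with a median of 1.0. Calr (0.21), H2-T3 (-0.30) and Canx (-0.20) were not called, and the other probe sets of Canx gave -0.31 and 1.07. The peptide transporter Tap1 read 59.2 and 58.6 on the DMSO arrays and 519 and 431 on the IFNg arrays (log2 2.83, SE 0.11, limma adjusted p = 7.65e-08), a clean separation in the chosen probe set, whereas 3 other sets for Tap1 gave -0.03, 0.10 and 0.22. Its partner Tap2 rose by 1.75 (SE 0.12, limma adjusted p = 6.52e-06). Tapbpl, a peptide editor, rose from 47.9 and 48.9 to 259 and 243 (log2 2.18, SE 0.10, limma adjusted p = 1.8e-07). The aminopeptidase Erap1, which trims peptides, rose by 1.27, and Pdia3, of the loading complex, by 1.16 (limma adjusted p = 0.000103 and 4.62e-05). The heavy chain H2-K1 read 1551 and 1691 on the DMSO arrays and 3415 and 3090.4 on the IFNg arrays (log2 1.0, SE 0.12, limma adjusted p = 0.000439), and its other probe sets rose by 0.52, 0.88 and 1.16. H2-D1 differed by 0.94 (limma adjusted p = 4.72e-05), with 0.08 to 1.38 in the others, and class I genes are so alike that their probe sets may share transcripts. B2m, the light chain, went from 4642 and 4472 to 5763 and 5534, a small rise (log2 0.31, SE 0.06, limma adjusted p = 0.00797) whose call was lost without DMSO replicate 1 (limma adjusted p = 0.0554), without DMSO replicate 2 (limma adjusted p = 0.0739) and without IFNg replicate 1 (limma adjusted p = 0.0846).

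Of 6 genes on the list of the immunoproteasome and its PA28 cap, 5 had a probe set of their own and 4 were tested. Of these 3 rose, 2 of them at 2-fold or more, with a median of 1.33. Psmb8, an inducible catalytic subunit, did not pass the filter, with differences of 0.15 and -0.01 in its probe sets. Psmb9, the catalytic subunit that replaces Psmb6 in the immunoproteasome, read 35.4 and 37.8 on the DMSO arrays and 461 and 373 on the IFNg arrays (log2 3.23, SE 0.18, limma adjusted p = 1.4e-06). Psmb10, which replaces Psmb7, rose from 455 and 457 to 1886 and 1561 (log2 1.89, SE 0.16, limma adjusted p = 4.06e-05). Psme1, of the PA28 cap, differed by 0.76 (limma adjusted p = 0.00534), a call that failed without DMSO replicate 1 (limma adjusted p = 0.0578) and without IFNg replicate 1 (limma adjusted p = 0.0614). The assembly factor Pomp was at 0.01. Limma called 0 of the 16 genes of the standard proteasome (log2 -0.29 to 0.22, median -0.06), and at an unadjusted p under 0.05 it counted 1 higher and 0 lower, with the replaced subunits Psmb6 (-0.18) and Psmb7 (-0.06) among those not called.

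MHC class II genes showed no such rise at 6 h. Of 7 tested members 1 was called higher and 1 lower, neither at 2-fold, with a median of -0.12. The invariant chain Cd74 read 126 and 107 on the DMSO arrays and 135 and 125 on the IFNg arrays (log2 0.15, SE 0.16, limma adjusted p = 0.601). H2-Eb1 was at 0.09 and H2-Ea at -0.36, not called. The calls were Lgmn (legumain, log2 0.71, limma adjusted p = 0.034) and Ifi30 (the lysosomal thiol reductase, -0.37, limma adjusted p = 0.0165). That of Lgmn was lost in 10 of the fits that left out 1 of the 12 arrays (limma adjusted p 0.0573 to 0.219) and with the arrays set to 1 median (log2 0.63, limma adjusted p = 0.0538), and that of Ifi30 without any 1 of the 4 DMSO and IFNg arrays (limma adjusted p 0.09 to 0.123).

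Chemokine genes rose in the set that signals through CXCR3, the receptor of activated T cells. Cxcl11 read 47.6 and 44.8 on the DMSO arrays and 541 and 382 on the IFNg arrays (log2 3.08, SE 0.18, limma adjusted p = 1.47e-06), with its other probe set at 1.36, and Cxcl10 read 967 and 947 on the DMSO arrays and 3158 and 3155 on the IFNg arrays (log2 1.71, SE 0.11, limma adjusted p = 3.44e-06). With Cxcl9 these are the 3 ligands of that receptor, and in each the IFNg arrays lay above the DMSO arrays. Cx3cl1 (fractalkine) rose by 1.29 (SE 0.10, limma adjusted p = 2.59e-05), with 0.14 and 0.36 in its other tested probe sets. Over the list, 6 of 15 tested members were called higher and 1 lower, with a median of 0.31. Ccl2, which attracts monocytes, went from 961 and 886 to 1646 and 1631 (log2 0.82, SE 0.17, limma adjusted p = 0.0163). Its call was lost without any 1 of the 4 DMSO and IFNg arrays (limma adjusted p 0.0913 to 0.11). Ccl8 (0.39) lost its call in 8 of the 12 fits without 1 array (limma adjusted p 0.0572 to 0.19), and Ccl5 (-0.35) without any 1 of the 4 DMSO and IFNg arrays (0.0711 to 0.199). Cxcl1, Cxcl12, Cxcl13, Cxcl16, Ccl4, Ccl7, Ccl20 and Ccl25 were not called (log2 -0.23 to 0.39).

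Of 11 tested cytokine genes 5 rose and 0 fell (median 0.15). Il15, which sustains natural killer and memory T cells, read 26 and 26.7 on the DMSO arrays and 96.1 and 88.8 on the IFNg arrays (log2 1.53, SE 0.10, limma adjusted p = 4.48e-06). Csf1, the macrophage growth factor, rose by 0.95 and Il18bp, the secreted inhibitor of IL-18, by 0.66 (limma adjusted p = 0.000963 and 0.00276). The other probe sets of Csf1 gave 0.22, 0.35 and 1.13. Lif (0.60) and Il7 (0.57) were called as well, but Lif lost its call in 3 of the 12 fits without 1 array (limma adjusted p 0.0861 to 0.163) and Il7 in 6 (0.0509 to 0.243). Il6, Il11, Il33, Il1rn, Tnf and Csf3 lay between -0.14 and 0.15, and Ifnb1 did not pass the filter. Of 9 tested contact molecules and death ligands 6 rose and 0 fell (median 0.78). Cd274 (PD-L1), the checkpoint ligand, read 30.3 and 23.7 on the DMSO arrays and 127 and 126 on the IFNg arrays (log2 1.93, SE 0.10, limma adjusted p = 6.61e-07). Lgals3bp and Lgals9, a galectin-binding glycoprotein and a galectin, rose by 1.65 and 1.46 (limma adjusted p = 4.75e-06 and 3.41e-06). Cd47 rose by 0.86 (limma adjusted p = 5.81e-05). Vcam1 (0.78) lost its call without DMSO replicate 1 (limma adjusted p = 0.0775) or IFNg replicate 1 (0.0801), and Fas (0.45) without any 1 of the 4 arrays (0.0717 to 0.147).

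Of 37 tested antiviral effectors 24 rose and 0 fell, 18 at 2-fold or more (median 0.85). Trim30a, an inhibitor of inflammatory signalling, had the largest difference, with signals of 19.4 and 18.8 on the DMSO arrays and 162 and 157 on the IFNg arrays (log2 2.60, SE 0.15, limma adjusted p = 1.67e-06). Xaf1 read 287 and 286 on the DMSO arrays and 1737 and 1737 on the IFNg arrays (log2 2.56, SE 0.10, limma adjusted p = 4.53e-08). Oasl2, of the oligoadenylate synthetase family, rose by 2.37 (limma adjusted p = 2.59e-05), and Ifit3, a partner of the RNA-binding protein Ifit1, by 2.27 (limma adjusted p = 3.84e-06). Cmpk2 (2.14), the kinase PKR gene Eif2ak2 (2.12), the antibody receptor Trim21 (2.02), Nmi (1.86) and the nucleotide hydrolase Samhd1 (1.78) rose as well. The other probe set of Cmpk2 gave 0.53. Several members best known as targets of type I interferon were near 0: Mx1 read 11.4 and 14.5 on the DMSO arrays and 9.06 and 14.5 on the IFNg arrays (log2 -0.09), and Mx2 (0.13), Ifi44l (0.24), Oasl1 (-0.03) and Ifi27l2a (0.25) were not called. The calls of Oas3 and Bst2 at 2-fold were less firm: each was lost in 10 of the 12 fits that left out 1 array.

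The interferon-responsive ADP-ribosyltransferases rose as a group. Of 7 tested members of the PARP list 6 rose, all at 2-fold or more, and 0 fell (median 1.66). Besides Parp14, Parp9 read 140.1 and 152 on the DMSO arrays and 949 and 930.2 on the IFNg arrays (log2 2.62, SE 0.12, limma adjusted p = 2.78e-07), and its partner ubiquitin ligase Dtx3l rose by 1.66 (limma adjusted p = 2.68e-05). Its relative Parp12 rose by 2.54 (limma adjusted p = 3.84e-06), Parp11 by 1.52 and Parp3 by 1.13, and Parp8 was not called (0.42). In conjugation of ISG15 and FAT10, small proteins linked to targets like ubiquitin, 6 of 8 tested genes rose and 0 fell (median 1.30). The conjugating enzyme Ube2l6 had signals of 28.6 and 13 on the DMSO arrays and 101 and 102 on the IFNg arrays (log2 1.96, SE 0.33, limma adjusted p = 0.005), a call that failed without DMSO replicate 2 (limma adjusted p = 0.0524) and without IFNg replicate 1 (limma adjusted p = 0.052). The ligase Herc6 rose by 1.85 and Rnf213 by 1.68 (limma adjusted p = 1.67e-05 and 0.000112), while the activating enzymes Uba7 (0.26) and Uba6 (-0.17) were not called. Of 6 tested Schlafen and SP100 family genes 2 were called higher, Sp100 (1.44, limma adjusted p = 9.33e-05) and Pml (0.41), the latter lost without DMSO replicate 2 (limma adjusted p = 0.116), without IFNg replicate 1 (limma adjusted p = 0.103) and without IFNg replicate 2 (limma adjusted p = 0.0721).

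Of 16 tested sensors of RNA and DNA 9 rose and 0 fell, 6 at 2-fold or more (median 0.70). Ifi202b, an HIN-200 protein that binds DNA, read 679.6 and 711 on the DMSO arrays and 3879.7 and 3966 on the IFNg arrays (log2 2.48, SE 0.16, limma adjusted p = 3.33e-06). Ifi204, of the same family, rose by 1.86, a call that failed without DMSO replicate 2 (limma adjusted p = 0.0524) and without IFNg replicate 2 (limma adjusted p = 0.0532). Tlr3, the endosomal receptor for double-stranded RNA, rose by 1.39 (limma adjusted p = 1.68e-05), and Sting1, the adaptor of the DNA sensing pathway, by 1.28 (limma adjusted p = 0.004), lost without DMSO replicate 1 (limma adjusted p = 0.0632). The enzyme that feeds it, Cgas, was at 0.03. Ifih1 (MDA5) read 626 and 621 on the DMSO arrays and 587 and 604 on the IFNg arrays and was not called (log2 -0.06). The other RNA helicases, Ddx58 (RIG-I, 0.73) and Dhx58 (LGP2, 0.79), were called with smaller differences. Ddx58 lost its call without any 1 of the 4 DMSO and IFNg arrays (limma adjusted p 0.0831 to 0.094), and Dhx58 without DMSO replicate 1 or IFNg replicate 1 (0.103 and 0.0916).

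In cell death and the inflammasome 5 of 14 tested genes rose and 0 fell (median 0.42). Casp12, an inflammatory caspase, read 10.7 and 17.5 on the DMSO arrays and 133 and 122 on the IFNg arrays (log2 2.60, SE 0.15, limma adjusted p = 1.67e-06), and its neighbour Casp4 (caspase-11), the sensor of cytosolic lipopolysaccharide, read 21.2 and 19.7 on the DMSO arrays and 65.2 and 81.5 on the IFNg arrays (log2 1.49, SE 0.12, limma adjusted p = 2.59e-05). Mlkl, the executor of necroptosis, rose by 1.31 (limma adjusted p = 0.000288). Its upstream kinase Ripk3 (0.42) and the pore protein Gsdmd (-0.01) were not called. Among metabolic and oxidative effectors 4 of 9 tested genes were called higher and 0 lower (median 0.21). Acod1, which makes itaconate, rose by 0.72 (limma adjusted p = 0.00101), and Wars, the tryptophanyl-tRNA synthetase, by 0.59 (limma adjusted p = 0.00289), though without the probe sets that may cross-read the adjusted p was 0.129. Upp1 (1.03) lost its call without any 1 of the 4 DMSO and IFNg arrays (limma adjusted p 0.0502 to 0.197), and Apol6 (0.76) without DMSO replicate 1 or either IFNg array (0.0625 to 0.0928). Nos2, inducible nitric oxide synthase, was not called (log2 -0.10, SE 0.12, limma adjusted p = 0.646), and Ido1 did not pass the filter. Of 6 tested complement genes the proteases C1ra (1.42) and C1s1 (1.06) rose, neighbours that start the classical pathway (limma adjusted p = 2.51e-06 and 0.000679), and Masp1 was called lower (-0.57), lost without DMSO replicate 1 (limma adjusted p = 0.0592), without DMSO replicate 2 (limma adjusted p = 0.0955) and without IFNg replicate 1 (limma adjusted p = 0.109).

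Over all genes tested, limma called 6.12% higher and 2.93% lower, so a short list would often hold 0 called lower. The lists with 0 called lower were 20, and of their 258 tested members 3 were lower at an unadjusted p under 0.05. The other 10 lists had 12 called lower among 157 tested members. The lists were divided by this outcome, so the difference between the 20 and the 10 is built in and is no result. Lists outside the interferon pathway had medians between -0.09 and 0.41. Of 18 tested NF-kappaB subunits and targets 2 rose and 0 fell (median 0.16), namely Nfkbiz (0.96), lost without DMSO replicate 2 (limma adjusted p = 0.0511), and Bcl3 (0.65, limma adjusted p = 0.0016). Nfkbia (-0.09) and Tnfaip3 (0.17), inhibitors that NF-kappaB itself induces, were not called. Of 18 immediate early genes 6 were called higher and 0 lower (median 0.41). Klf6 had signals of 120.3 and 181 on the DMSO arrays and 572 and 558 on the IFNg arrays (log2 1.87, SE 0.19, limma adjusted p = 0.000129), with 1.45 in another probe set and 0.05 to 0.19 in the remaining ones. Fos (0.05) and Egr1 (0.56) were not called. Of 17 ER stress genes 4 were called higher and 0 lower (median 0.15). The chaperone Hsp90b1 (1.03) is among the 156, but its call was lost without any 1 of the 4 DMSO and IFNg arrays (limma adjusted p 0.0712 to 0.0853).

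Of 18 lysosome and autophagy genes 3 were called higher and 0 lower (median 0.20), against 6.12% and 2.93% of all genes tested. They were Ctsa (0.58), Neu1 (0.52) and Sqstm1 (0.47), none at 2-fold. Without DMSO replicate 1 or IFNg replicate 1 the adjusted p of Ctsa was 0.112 and 0.0916, that of Neu1 was above the threshold in 10 of the 12 fits without 1 array (limma adjusted p 0.0681 to 0.297), and Sqstm1 was not called as the mean of its probe sets (limma adjusted p = 0.331). Among 21 collagens and matrix genes 2 were called higher and 2 lower (median -0.09). Thbs1, a matrix glycoprotein that activates TGF-beta, read 15 and 23.9 on the DMSO arrays and 70.3 and 54.8 on the IFNg arrays (log2 1.35, SE 0.29, limma adjusted p = 0.0165), with 0.35 in its other probe set. That call was lost without DMSO replicate 1 (limma adjusted p = 0.17), without IFNg replicate 1 (limma adjusted p = 0.14) and without IFNg replicate 2 (limma adjusted p = 0.0629). The fibrillar collagens Col1a1 (-0.37), Col1a2 (0.02) and Col3a1 (-0.09) were not called. Of 12 matrix proteases and plasminogen genes 0 rose and 2 were called lower (median -0.05), Plat, described with the falls, and Mmp10 (-0.45), lost without any 1 of the 4 DMSO and IFNg arrays (limma adjusted p 0.0767 to 0.11).

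Of 16 contractile genes and TGF-beta targets 3 were called higher and 1 lower (median 0.15). Ankrd1, a target of mechanical signalling through YAP, read 300.2 and 348 on the DMSO arrays and 650.2 and 798 on the IFNg arrays (log2 1.13, SE 0.11, limma adjusted p = 0.000138), with 0.49 in its other probe set. Acta2 (-0.04) and Tagln (0.22), markers of the contractile state, were not called. Of 31 cell cycle genes 5 were called higher and 1 lower (median 0.13), against 6.12% and 2.93% of all genes tested. Aurka, a mitotic kinase, rose by 0.85 (limma adjusted p = 0.00037), with 0.03 in its other probe set, and Mki67 (-0.12) and Cdk1 (-0.05) were not called. Of 21 genes of cholesterol and fatty acid synthesis 3 were called higher and 1 lower (median 0.02). The largest was Msmo1 (0.80), a sterol oxidase, lost in 6 of the fits that left out 1 of the 12 arrays (limma adjusted p 0.0512 to 0.159) and with the mean of its probe sets (log2 0.52, limma adjusted p = 0.0805).

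A rise outside these roles was that of Tubb3, the class III beta-tubulin. It read 25.1 and 32.5 on the DMSO arrays and 356 and 339 on the IFNg arrays, a 9.56-fold rise with no overlap (log2 3.26, SE 0.12, limma adjusted p = 3.5e-08). Tubb3 had 1 probe set. Among the other 11 tested tubulins the differences ran from -0.42 to 0.49, 3 called higher and 1 lower. The summed signal of 8 neuronal markers, which include Tubb3, was 228 and 246 with DMSO and 547 and 530 with IFNg, but Stmn2 (0.13), Map2 (0.07), Rbfox3 (-0.25), Syp (-0.28) and Elavl3 (-0.18) were not called, and Nefl and Snap25 were below the median on all 4 arrays. Fst (follistatin), which binds activins, was not on a list but lay among the largest differences from IFNa. It read 20.2 and 20 on the DMSO arrays and 206 and 198 on the IFNg arrays (log2 2.88, SE 0.13, limma adjusted p = 2.63e-07), and its other probe set rose by 3.80.

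**Figure D3:**
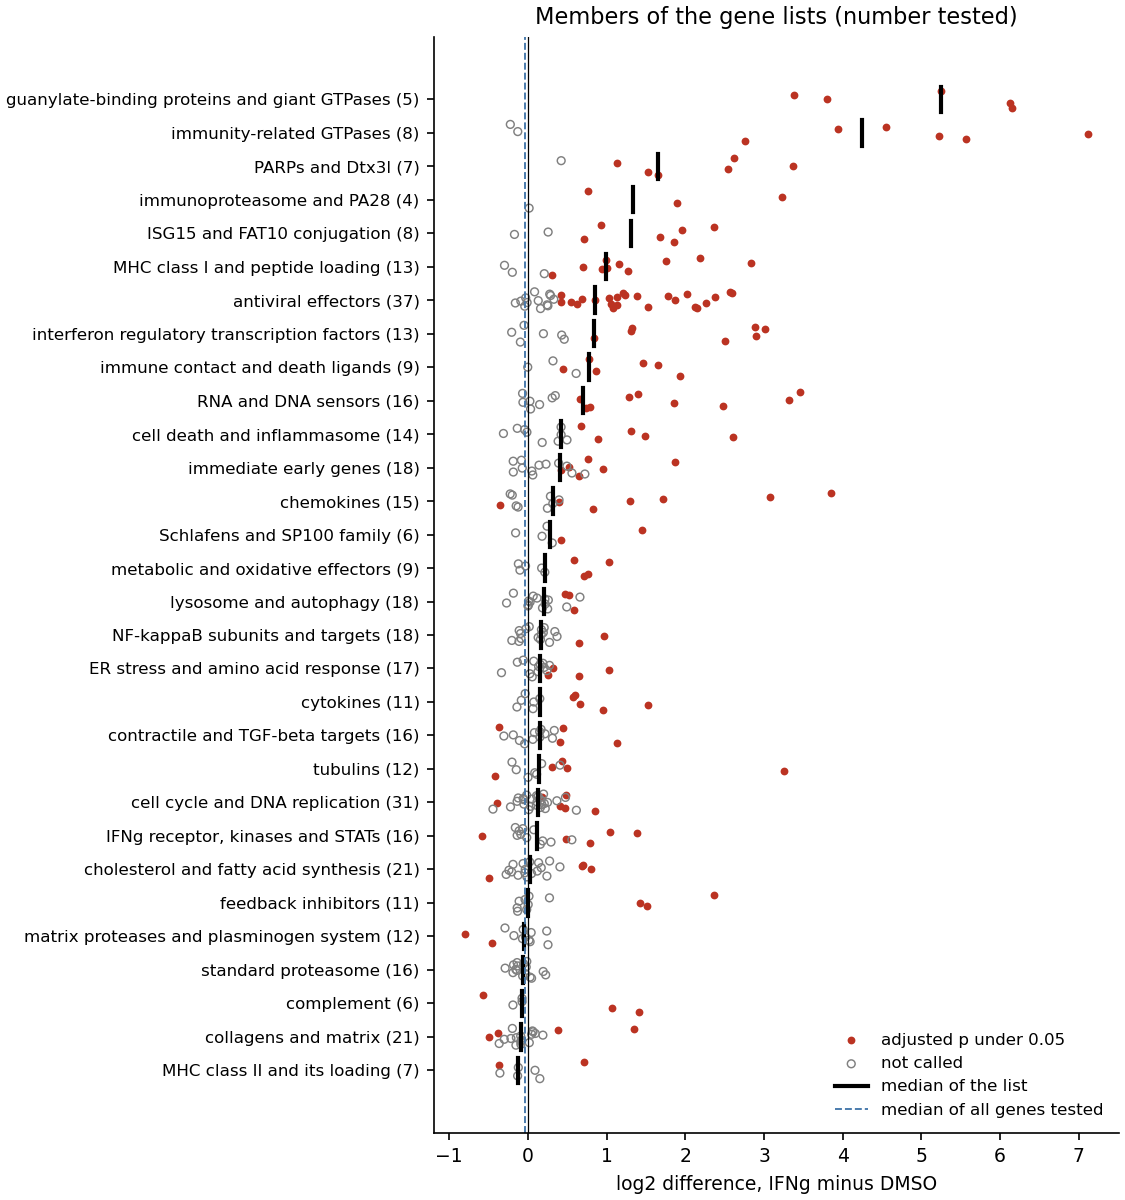
Each row is 1 gene list, with its number of tested members in brackets, and each point 1 member, with the log2 difference IFNg minus DMSO on the x axis. Filled red points were called, open ones were not, a black bar marks the list's median and a dashed line the median of all genes (-0.03). The IRG and GBP lists lie far to the right with medians of 4.24 and 5.25, the antiviral, PARP and class I lists lie between 0.85 and 1.66, and the standard proteasome, collagens and class II lists lie around 0.

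The falls were small, and the 8 largest ran from -0.84 to -0.69 on the log2 scale. Plat, tissue plasminogen activator, read 148 and 156 on the DMSO arrays and 84.4 and 83.2 on the IFNg arrays, with no overlap (log2 -0.80, SE 0.13, limma adjusted p = 0.00381), and its call was kept without any 1 array. Bscl2 (seipin), a protein of lipid droplets, read 109 and 106 on the DMSO arrays and 50.2 and 62.9 on the IFNg arrays (log2 -0.84, SE 0.12, limma adjusted p = 0.00137), with -0.35 in its other probe set. The receptor Notch2 read 307 and 314 on the DMSO arrays and 217 and 164 on the IFNg arrays (log2 -0.69, SE 0.16, limma adjusted p = 0.0211), with -0.02 in its other probe set, and its call was lost without DMSO replicate 1 (limma adjusted p = 0.131), without DMSO replicate 2 (limma adjusted p = 0.113) and without IFNg replicate 2 (limma adjusted p = 0.16). Lgr6, a receptor for R-spondins, was at -0.76, lost without DMSO replicate 1 (limma adjusted p = 0.082) and without IFNg replicate 2 (limma adjusted p = 0.0787). For Acap1 (-0.77), Bace1 (-0.75), Fam199x (-0.75) and Adcy7 (-0.71) the choice of probe set decided the size. As the mean of its probe sets Bace1 was at -0.24 (limma adjusted p = 0.0796), Fam199x at -0.38 (0.082) and Adcy7 at -0.20 (0.315), and the other sets of Acap1 ran from -0.13 to -0.19. Pdgfrb, a growth factor receptor of fibroblasts, was called lower (log2 -0.69, SE 0.17, limma adjusted p = 0.0324), and this was lost in 6 of the fits that left out 1 of the 12 arrays (limma adjusted p 0.0541 to 0.22) and with the mean of its probe sets (log2 -0.36, limma adjusted p = 0.154).

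The arrays with IFNa for 6 h allow the question of how the interferons differ. Both responses share the DMSO arrays, so the interferons were tested against each other directly. At 2-fold or more, 72 genes were higher with IFNg (0.591% of those tested) and 14 lower (0.115%). At any size 568 were higher (4.66%) and 1621 lower (13.3%). That split moved with the setting: it was 729 higher and 803 lower with the arrays set to 1 median, 559 and 822 after quantile normalization, 714 and 986 with 1 trimmed mean, 91 and 19 with array weights, and 35 and 1 on the 4 interferon arrays alone. It was 122 and 132 without IFNg replicate 2, 162 and 368 without IFNg replicate 1, 2334 and 4037 without IFNa replicate 1, and 925 and 2212 without IFNa replicate 2. Of the 156 genes that IFNg had raised 2-fold, 93 were called higher with IFNg than with IFNa, 7 lower, and 56 were not called, with a median difference of 0.73. The 156 were chosen on the same IFNg arrays, so these counts are a description and no independent evidence that IFNg gave more. Since IFNa replicate 2 stood apart in its GAPDH ratio, the counts without it are 125 higher, 12 lower and 19 not called. On the 4 arrays of the 2 interferons alone 34 were higher and 0 lower. The interferon groups also differed in quality measures on both replicates. The transferrin receptor 5'/3' ratio was 0.344 and 0.240 with IFNa, against 0.792 and 0.735 with IFNg. LysX was 81.1 and 45.4 with IFNa, against 40.6 and 36.1 with IFNg. Leaving out IFNa replicate 2 does not remove these differences, and their part in the results was not tested.

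Iigp1 separated the interferons most. With IFNa it read 17.6 and 24.7, with 12 and 9.78 for DMSO and 2712 and 2670.1 with IFNg (log2 6.51, SE 0.11, limma adjusted p = 2.41e-10). Cxcl9 read 6.11 and 6.37 with IFNa, no higher than with DMSO (log2 4.13, SE 0.13, limma adjusted p = 1.83e-08 for IFNg against IFNa). BC023105 was 4.32 higher with IFNg than with IFNa and Ifi47 3.82 (limma adjusted p = 1.83e-08 and 1.22e-06). Tubb3 read 33.1 and 32.2 with IFNa (log2 3.11, SE 0.12, limma adjusted p = 9.99e-08), and Fst 12.5 and 20.7 (log2 3.08, SE 0.13, limma adjusted p = 2.9e-07). Gbp6 and Igtp differed by 3.03 each (limma adjusted p = 4.12e-08 and 3.25e-08). Gbp2 and Igtp were intermediate with IFNa: Gbp2 read 555 and 584 and Igtp 414 and 386, between their DMSO and IFNg levels. All 5 GBPs, 6 of the 8 tested IRGs and 5 of 13 class I genes were called higher with IFNg, against 4.66% of all genes tested. So were Irf1 (2.47) and Irf8 (2.86). The 6 IRGs are those that rose on these same IFNg arrays, so these counts are a description only. The call of Gbp3 was lost without IFNg replicate 1 or 2 (limma adjusted p 0.137 and 0.128).

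Of the 37 antiviral genes tested, 15 were lower with IFNg than with IFNa and 2 higher, with a median difference of -0.31. Over all genes more were also called lower (13.3%) than higher (4.66%), a split that turned with array weights and on the 4 interferon arrays alone. Mx1, which blocks influenza virus, read 28.2 and 38.7 with IFNa and 9.06 and 14.5 with IFNg (log2 -1.05, SE 0.16, limma adjusted p = 0.00444). Without IFNa replicate 2 it was at log2 -0.87, limma adjusted p = 0.00131. Ifih1 read 1318 and 1433 against 587 and 604 (log2 -1.19, SE 0.08, limma adjusted p = 1.19e-05). Dhx58 was -1.40, Helz2 -1.14 and Plat -1.27 (limma adjusted p = 0.000428, 0.00146 and 0.000317). Usp18, which IFNg raised, still lay below its level with IFNa (log2 -1.33, SE 0.23, limma adjusted p = 0.0064; without IFNg replicate 2, limma adjusted p = 0.0617, and without IFNa replicate 2, log2 -0.91, limma adjusted p = 0.000164). Oas3 (-1.35) lost its call without IFNg replicate 1 or 2 (limma adjusted p 0.0722 and 0.0928), and Ddx60 (-1.12) in 10 of the 12 fits without 1 array. Without IFNa replicate 2 these were log2 -0.72 and log2 -0.46. On the 4 interferon arrays alone, Ifih1 was called among these 8 and the other 7 were not.

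**Figure D4:**
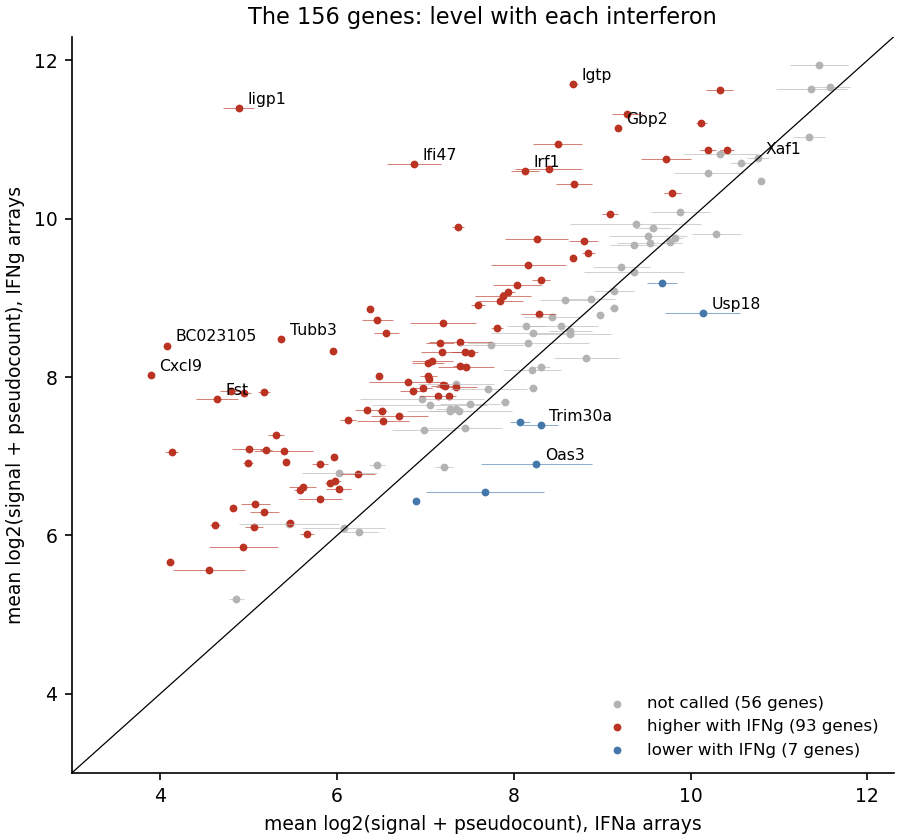
Each point is 1 of the 156 genes called higher at 2-fold or more with IFNg, with its mean log2(signal + 8.66) on the 2 IFNa arrays on the x axis and on the 2 IFNg arrays on the y axis, a thin line for the range of the 2 IFNa arrays, and a diagonal where both are equal. The 93 red genes called higher with IFNg lie above the diagonal, with Iigp1 farthest from it, the 7 blue genes called lower lie below, and the 56 not called are grey.

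The contrast of IFNg against no interferon was also measured in cells given AMN107 first, on 4 other arrays. There 108 genes rose 2-fold or more (0.886%), and 83 of them were among the 156, which is 53.2% of the 156 and 76.9% of the 108. Of the 156, 111 were called higher at any size with AMN107 and 139 had a higher mean, with a median of 1.09 against 1.41. The difference between the responses was tested as an interaction. It was called smaller with AMN107 in 109 genes (0.894%) and larger in 16 (0.131%), and among the 156 in 39 and 3. Of those 39, 34 were called higher with AMN107 alone than with DMSO. After IFNg, 5 of the 39 were called lower with AMN107 than without it, and 16 were called higher. The 156 were chosen for a large difference on the DMSO and IFNg arrays, which enter the interaction, so these counts and the lower median are a description only. The counts of smaller and larger responses depended on the IFNa arrays, which enter the shared spread: without both of them 92 of the 156 were smaller and 11 larger. They also moved with single arrays, to 10 smaller and 0 larger without DMSO replicate 1.

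The 6 largest smaller responses were those of GBPs and IRGs. Gbp2 read 22.5 and 23.6 with DMSO but 197 and 289 with AMN107 alone, and after IFNg 2224 and 2286 without AMN107 and 2291 and 2452 with it. After IFNg the levels differed by 0.07 on the log2 scale and the starting levels did not overlap. The interaction was -2.89 (SE 0.20, limma adjusted p = 0.000215). Igtp rose from 426 and 524 with AMN107 to 3294 and 3194 after IFNg, so its interaction was -2.46 (SE 0.14, limma adjusted p = 5.76e-05). Gbp7 (-2.46), Gbp2b (-2.24), Irgm2 (-2.23) and Gbp3 (-2.07) followed (limma adjusted p = 0.000228, 0.0029, 0.000228 and 0.000445). Iigp1 differed in another way: it read 15.5 and 14.8 with AMN107 alone, against 12 and 9.78 with DMSO, and 1485 and 1466 after IFNg, below the 2712 and 2670.1 without AMN107 (log2 -1.15, SE 0.16, limma adjusted p = 0.0117). The DMSO and IFNg arrays, on which these families rose, enter the interaction, so the next counts are a description only. Called smaller were 6 of the 8 tested IRGs and all 5 GBPs, against 0.894% of all genes tested. Of these, Iigp1 lost its call in 8 of the fits that left out 1 of the 12 arrays (limma adjusted p 0.0502 to 0.0898), Ifi47 in 10, Irgm1 in 8 and Gbp6 in 8. The 6 largest interactions kept their calls without any 1 array.

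A larger response with AMN107 was called for few genes. Cxcl9 read 6.99 and 5.87 with AMN107 alone and 634 and 517 after IFNg, against 283 and 224 without AMN107 (log2 1.42, SE 0.18, limma adjusted p = 0.00798). This was lost without DMSO replicate 1 (limma adjusted p = 0.0539) and without AMN107 replicate 2 (limma adjusted p = 0.0659). Ifi44l, which had not risen with IFNg, read 11.7 and 13.2 with AMN107 and 82.5 and 57.3 after IFNg (log2 1.64, SE 0.19, limma adjusted p = 0.00506), lost without DMSO replicate 1 (limma adjusted p = 0.0502). Mx1 read 16.3 and 17.9 with AMN107 and 70.4 and 53.4 after IFNg (log2 1.53, SE 0.23, limma adjusted p = 0.0155), a call lost in 6 of the fits that left out 1 of the 12 arrays (limma adjusted p 0.0588 to 0.0856). Gm11772 (1.12), Crem (1.07), a cAMP-responsive factor, and Casp4 (1.03) lost theirs in 7, 8 and 7 of those fits. The 5' over 3' signal of the transferrin receptor was 0.996 and 1.07 with AMN107 and 0.907 and 1.09 with AMN107 and IFNg, ranges that overlap, unlike those of DMSO and IFNg. With DMSO it was 0.275 and 0.267, so the starting levels without and with AMN107 come from arrays that differ in this ratio. LysX was 59.6 and 66.2 with DMSO and 38.9 and 37.6 with AMN107. The part of these differences in the interactions was not tested.

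**Figure D5:**
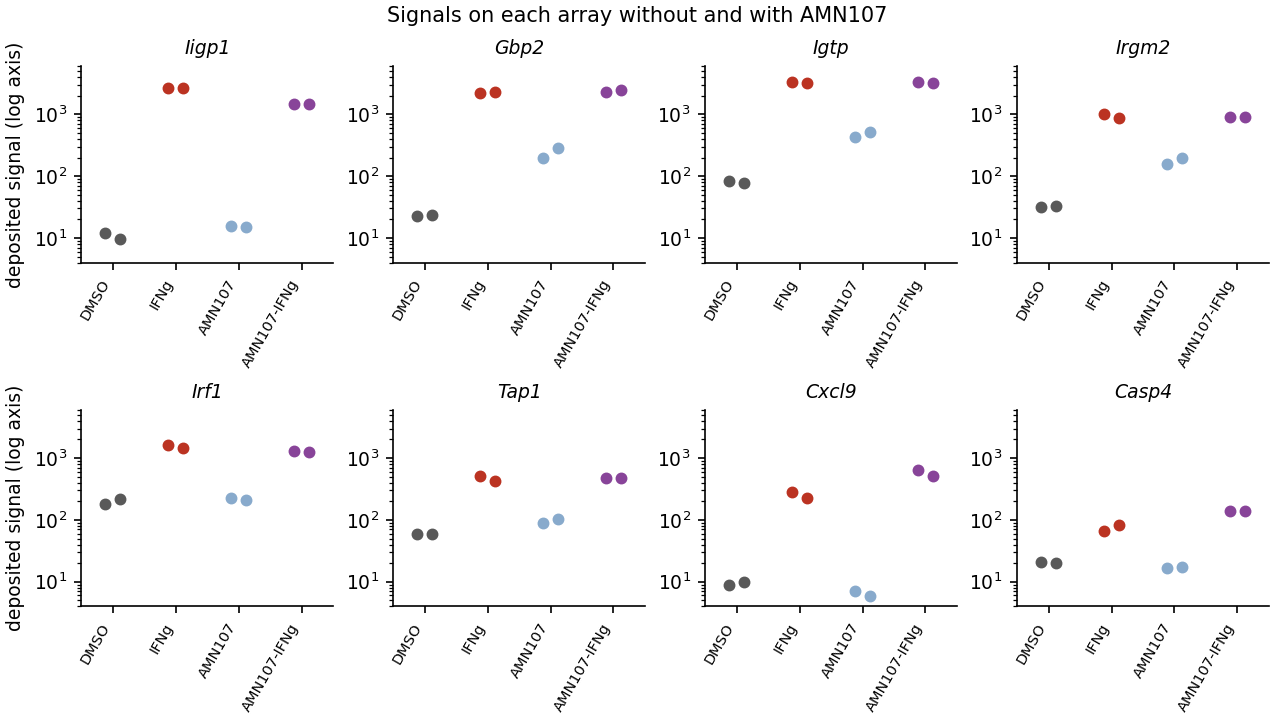
Each panel is 1 gene (Iigp1, Gbp2, Igtp, Irgm2, Irf1, Tap1, Cxcl9 and Casp4), with the deposited signal on a log y axis and 2 points, 1 per array, for each of DMSO, IFNg, AMN107 and AMN107-IFNg. The AMN107 arrays lie above the DMSO arrays for Gbp2, Igtp and Irgm2, and after IFNg with AMN107 Iigp1 is lower and Cxcl9 higher than after IFNg alone.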

How the data were processed

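12 single-colour arrays of MEFs were used, 2 in each of 6 groups. The deposited intensities were linear MAS5 signals on the authors' scale, per the submitters' processing notes. The scaling target and MAS5 version are not given in the sources used here, and the arrays were left as deposited (trimmed means 100.4 and 101.3 for DMSO, 106.3 and 105.0 for IFNg).

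Of 45101 probe sets (64 of them controls), 34945 had 1 gene in the platform annotation, 932 had several and 9160 had none. Only those with 1 gene were named. Symbols of 34741 were looked up in RefSeq (GRCm38.p6), which changed 0 of them, and 204 were not found there. Genes stayed in when their signal exceeded the array median on at least 2 of 12 arrays, and the probe set with the highest mean stood for the gene. The pseudocount of 8.66 is the 25th percentile of the signals. The values were fitted with limma 3.58.1 in R 4.3.3, with 1 mean per group over all 12 arrays, eBayes with a trend, and Benjamini-Hochberg adjustment at 0.05. Exact permutation of 2 against 2 arrays cannot go below 0.333. Precision is limited by having 2 arrays in a group.

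The genes named were the 16 largest rises and 8 largest falls with arrays apart, up to 4 called members of each list, members of the pathway, the 8 largest differences each way from IFNa and the 6 largest each way in the interaction. Other list members are named as such. Members and lists were chosen with earlier results of these data known. Some genes are not reported here. The alternatives changed the pseudocount, scaling, filter, choice of probe set, arrays in the fit, array weights, trend and replicate block.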

Additional observations from a re-analysis of the deposited data

Results flagged for a closer look

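The response to IFNg differed with AMN107 in 125 genes by limma's interaction test (adjusted p under 0.05), 109 smaller and 16 larger. On the log2 scale the interaction was -2.89 for Gbp2, -2.462 for Igtp, -2.458 for Gbp7, -2.241 for Gbp2b, -2.225 for Irgm2 and -2.07 for Gbp3. It was -1.821 for Irgm1, -1.604 for Ifi47, -1.581 for BC023105, -1.499 for Mndal, -1.148 for Iigp1 and -0.7776 for Gbp6. It was positive for Ifi44l (1.635), Mx1 (1.533), Cxcl9 (1.417), Gm11772 (1.123), Crem (1.074) and Casp4 (1.031). Without DMSO replicate 1 the count was 11.

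Probe sets that the annotation gives to several genes or to none entered no comparison above. Of 3114 such probe sets tested, 38 were higher with IFNg at 2-fold or more and 1 was lower, with a largest log2 difference of 7.37.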

How the results depend on the processing

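The 156 rises at 2-fold ranged from 132 to 175 over the other settings with all arrays of the comparison, and from 127 to 157 without 1 array. The count of called genes of any size, 1103, was 3031 with the 4 arrays alone, 3728 without both IFNa arrays, 3049 with array weights, and 275 to 3733 without 1 array. The 86 genes at 2-fold against IFNa were 36 on the 4 interferon arrays alone and 70 to 381 without 1 array. The 125 interactions were 81 with quantile normalization, 1564 on the arrays of the contrast alone, 1579 without the IFNa arrays, 1462 with array weights, and 11 to 1577 without 1 array. The 108 rises with AMN107 ran from 95 to 119 without 1 array.

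Same-numbered arrays did not pair: their deviations correlated at -0.143 to 0.312 over 15 pairs of groups, and at -0.133 between DMSO and IFNg. With the replicate number as a block the counts were 1064, 156, 89, 108 and 110 (any size, 2-fold, against IFNa, with AMN107, interaction). With the DMSO numbers crossed, chosen after seeing the data, they were 1147 and 156.

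Under the mean of a gene's probe sets the direction turned for Ptpn11 (0.2379), Ccn1 (-0.068), Tubb4b (-0.005754), Rrm2 (0.4015) and Scd2 (0.4135), the last pair called only there (limma adjusted p = 0.0219 and 0.0381), and without the probe sets that may cross-read for Canx (1.07) and Xbp1 (0.8069). Against IFNa, Vim turned from -0.1429 without IFNa replicate 1 to 0.5372 without IFNa replicate 2. The cause was not tested. Under the 3 scalings 0 of the 169 genes named for IFNg against DMSO turned direction.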

Other observations

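Genes outside the lists, chosen after their values were seen, also lay among the 156. Ptx3, a secreted pentraxin of innate immunity, had a log2 difference of 2.14, Tmem140 of 2.12, Cdc42ep2, an effector of the GTPase CDC42, of 2.01, and Vwa5a of 1.98. Receptor genes rose as well: Il13ra1 by 1.70, Il15ra, which presents IL-15, by 1.67, Osmr, the oncostatin M receptor, by 1.57, and Notch1 by 1.30. Serpinb9, an inhibitor of granzyme B, rose by 1.64, the metallothionein Mt2 by 1.60 and the cytidine deaminase Apobec3 by 1.18. All of these passed limma's adjusted p of 0.05.

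Of the 156 genes, 74 had other tested probe sets, 116 in all. Of these, 64 were called higher, 40 at 2-fold or more and 0 lower by limma, and 11 had a difference under 0.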
